A study of Homo sapiens with 6 samples.

Results

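The interleukin-1 receptor family was followed in KYSE150 cells, an established human line from an oesophageal squamous cell carcinoma. The 7 chains IL1R1, IL1R2, IL1RAP, IL1RL1, IL18R1, IL18RAP and SIGIRR were chosen by gene symbol, with the TPA against DMSO values of the same table already known. That contrast therefore describes the 7 chains and is not a test of them. All 7 had a row among the 60591 genes of the deposited count table, and 6 passed the filter on low counts (IL18RAP did not). TPA cells were kept overnight without serum and then given the phorbol ester TPA, an activator of protein kinase C, at 10 ng/ml for 24 h. The labels call the other group DMSO, a common solvent, and state no dose or time for it; the protocol text they carry is the one for TPA. Both groups hold 3 libraries (n = 3 each) of total RNA from this single line, and the labels name no genetic change in either. The labels do not say that the 3 came from separate cultures, so the spread between libraries may be technical.

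Receptors of this family are single-pass membrane proteins with immunoglobulin-like domains outside the cell. In signalling receptors a Toll/interleukin-1 receptor (TIR) domain inside the cell recruits MYD88 and IRAK kinases and leads to NF-kB and MAP kinase activation. A ligand first binds its own chain (IL1R1 for IL-1 alpha and beta, IL1RL1 for IL-33, IL18R1 for IL-18) and then draws in an accessory chain, IL1RAP for the IL-1, IL-33 and IL-36 receptors and IL18RAP for the IL-18 receptor. IL1R2 binds IL-1 but lacks a TIR domain and acts as a decoy, and SIGIRR is a family member that dampens signalling by other chains. Keratinocytes and other squamous cells are known both to make IL-1 and to respond to it.

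Library totals ran from 27702329 to 33965547 counts. A count of 0 allowed up to 0.0915 to 0.109 CPM (counts scaled to a common library size, with a floor of 3 counts), and floors and counting intervals cover counting error only. The libraries numbered 1 stood apart from those numbered 2 and 3 in both groups. Across genes, deviations from the group mean had r = 0.55, 0.34 and 0.37 between the DMSO and TPA libraries numbered 1, 2 and 3. The crossed pairings of numbers 2 and 3 were as close (0.37 for DMSO 3 with TPA 2, 0.36 for DMSO 2 with TPA 3). These values thus set number 1 apart and do not tell numbers 2 and 3 from each other. Over 12004 expressed genes the log2 ratio of TPA to DMSO followed the GC content of transcripts in the libraries numbered 2 and 3 (Spearman correlation across genes 0.67 and 0.61) and hardly in those numbered 1 (-0.11). All 8 squamous epithelial markers looked up were above the filter, with a summed level of 1509 to 3083 CPM in DMSO and 1124 to 2127 CPM in TPA. The 9 leukocyte markers summed to 13.2 to 21.3 CPM in DMSO and 14.1 to 20.1 CPM in TPA, with MS4A1 and TPSAB1 at 0 in every library and PTPRC at no more than 5 counts in a library. None of the markers passed the test without the block (edgeR), but single markers within a list went opposite ways: with the block KRT5 (means of 1315 and 355 CPM in DMSO and TPA), TP63, DSG3 and CD3E (2.96 and 1.17 CPM) were called lower, and KRT6A (1.16 and 15.1 CPM) and ITGAM (0.447 and 1.45 CPM) higher. CSF1R, at 10.6 and 10.1 CPM, was the largest part of the leukocyte sum. CD68 had means of 1.89 and 4.42 CPM and was not called with or without the block. The part of these markers in the results was not tested. The 5 fibroblast markers (DCN at 0) summed to 5.40 to 12.2 and 2.94 to 10.5 CPM, and the 4 endothelial markers to 2.20 to 3.00 and 1.09 to 2.29 CPM.

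The decoy and the accessory chain showed opposite shifts of large size. IL1R2 went from almost no reads in DMSO to about 51 CPM in TPA, while IL1RAP had a mean of 87.9 CPM in DMSO and 23.6 CPM in TPA. The ligand-binding chains IL1R1, IL1RL1 and IL18R1 and the inhibitory chain SIGIRR had higher means in TPA, and IL18RAP was near 0 in both groups. In RNA from whole cultures a change in the number of cells that express a gene and a change in RNA per cell cannot be told apart.

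**Figure D1:**
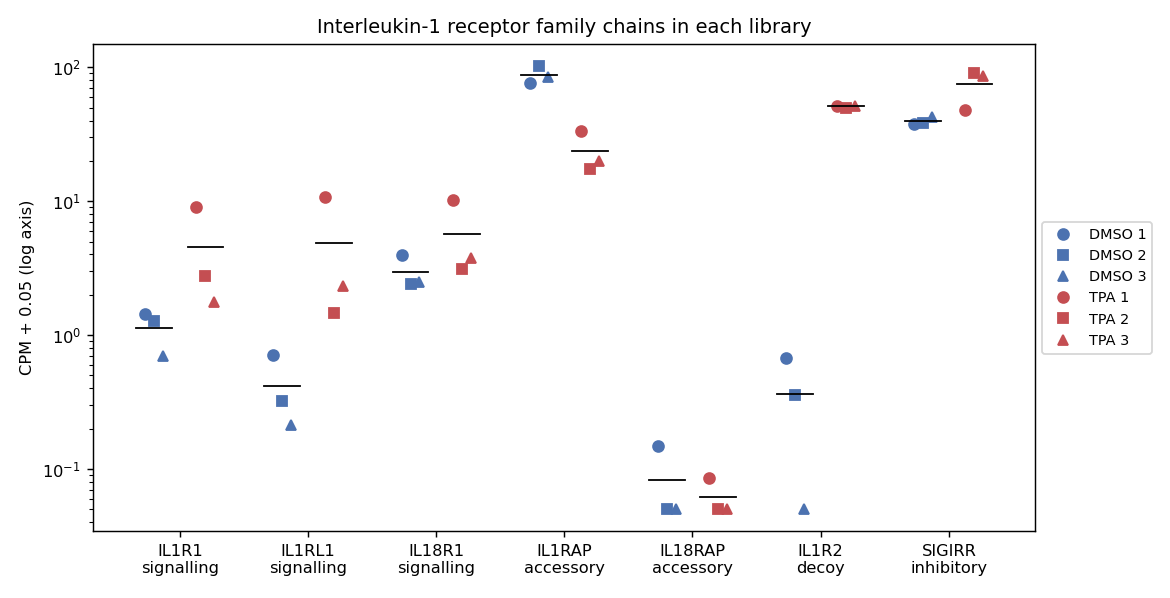
Levels of the 7 chains in each library, as CPM + 0.05 on a log axis, grouped by role. Blue points are DMSO, red points are TPA, the symbol gives the library number and the black lines are group means. IL1R2 at 50.1 to 51.6 CPM in TPA lay far above its DMSO libraries, IL1RAP lay lower in every TPA library, and IL18RAP stood near the bottom of the axis in both groups.

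IL1R2 (ENSG00000115590.13; GRCh38, chromosome 2, 101991844 to 102028544, + strand) had 19, 10 and 0 counts in DMSO 1, 2 and 3 and 1424, 1490 and 1569 counts in TPA 1, 2 and 3. In CPM these were 0.625, 0.305 and 0 in DMSO and 51.6, 50.1 and 51.2 in TPA. The 3 TPA libraries were almost level, also the library numbered 1 that stood apart for many genes, and DMSO lay below all of them. The group values were 0.310 ± 0.313 and 51.0 ± 0.793 CPM (SD), a log2 fold change of 7.34 ± 0.83 (SE). Over summed counts, 29 in DMSO and 4483 in TPA, the ratio was 165 with a 95% counting interval of 115 to 246 (exact binomial). Over 15 alternative fits the log2 value ran from 6.78 without DMSO 3 to 8.45 without both libraries numbered 1. It was 8.32 without DMSO 1.

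IL1RAP (ENSG00000196083.9; chromosome 3, 190514051 to 190659750, + strand) was the most abundant of the chains that build signalling receptors in DMSO. It had 76.3, 102 and 85.3 CPM in DMSO 1, 2 and 3 and 33.4, 17.4 and 19.99 CPM in TPA 1, 2 and 3. The groups did not overlap, and TPA 1 was the highest of the 3 TPA libraries. The means were 87.9 ± 13.1 and 23.6 ± 8.59 CPM (SD), a log2 fold change of -1.90 ± 0.31 (SE). IL1RAP also gives a soluble form by alternative splicing, which a count per gene does not separate from the membrane form.

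IL1R1, the signalling receptor of IL-1 (ENSG00000115594.11; chromosome 2, 102064544 to 102179874, + strand), was low in DMSO, at 1.38, 1.22 and 0.652 CPM. In TPA it had 9.06, 2.72 and 1.73 CPM. Each TPA library was above each DMSO library, but TPA 1 carried most of the group mean of 4.50 ± 3.98 CPM against 1.08 ± 0.384 CPM in DMSO. The log2 fold change was 2.05 ± 0.66 (SE), and 1.14 without TPA 1. An antisense gene, IL1R1-AS1, overlaps IL1R1 on the opposite strand and had at most 2 counts in a library.

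IL1RL1, also called ST2, the receptor of IL-33 (ENSG00000115602.16; chromosome 2, 102311502 to 102352037, + strand), had 0.658, 0.275 and 0.163 CPM in DMSO and 10.7, 1.41 and 2.28 CPM in TPA. The groups did not overlap, and TPA 1 was again far above the other TPA libraries. The log2 fold change was 3.70 ± 0.91 (SE), 2.44 without TPA 1 and 4.43 without DMSO 1. As for IL1RAP, a count per gene does not separate a membrane form of IL1RL1 from a soluble one. IL18R1, the ligand-binding chain for IL-18 (ENSG00000115604.10; chromosome 2, 102311529 to 102398775, + strand), had 3.92, 2.35 and 2.44 CPM in DMSO and 10.1, 3.09 and 3.72 CPM in TPA. Its groups overlapped, since DMSO 1 was above TPA 2 and TPA 3, and its log2 fold change of 0.95 ± 0.50 (SE) went to 0.34 without TPA 1. In GENCODE 29 IL1RL1 and IL18R1 share 95 exon bases on the same strand (1.65% and 2.18% of their exon bases), where reads cannot be given to 1 of the 2.

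IL18RAP, the accessory chain for IL-18 (ENSG00000115607.9; chromosome 2, 102418689 to 102452565, + strand), had 3 counts in DMSO, all in DMSO 1, and 1 count in TPA, in TPA 1. The ratio of TPA to DMSO was 0.355, with a 95% counting interval of 0.00677 to 4.43, so that no change was detectable at this depth. SIGIRR (ENSG00000185187.12; chromosome 11, 405716 to 417455, - strand) had 38.0, 38.2 and 42.3 CPM in DMSO and 48.1, 91.1 and 85.6 CPM in TPA. All 3 TPA libraries were above DMSO, TPA 1 by the least. Its log2 fold change was 0.92 ± 0.28 (SE).

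Among the 6 members tested, 1 was called higher (IL1R2) and 1 lower (IL1RAP) at an adjusted p under 0.05 in edgeR's quasi-likelihood fit, where 0.861% of 21825 genes were called higher and 0.394% lower. Groups did not overlap for 4 members that were higher in TPA and 1 that was lower, against 14.3% and 15.2% of all genes tested. With the replicate number as a block 3 members were called higher, adding IL1R1 and IL1RL1, and 1 lower, against 4.58% and 6.52% of genes. With the block and a correction for GC content 5 were called higher and 1 lower, against 9.24% and 10.7%. Because the contrast was known when the chains were picked, nothing is read from these counts. All calls were lost without DMSO 2, without DMSO 3 or without TPA 3 (0 members higher and 0 lower), and that of IL1RAP also without DMSO 1 or without TPA 2. The loss was not particular to the members. Over all genes 0 of 22513, 0 of 22411 and 2 of 22902 were called higher without DMSO 2, DMSO 3 and TPA 3, and 0 lower. Without DMSO 1 and without TPA 2, 38 of 22475 and 1 of 22904 genes were called lower.

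Part of the scatter between library numbers ran with GC content. IL1R1, IL1RAP, IL1RL1 and IL18R1 have transcripts of 41.5% to 44.2% GC, IL1R2 of 50.6% and SIGIRR of 67.9%. Expressed genes within 2 percentage points of the GC content of IL18R1 had a median log2 ratio of 0.06, -0.85 and -0.58 in the libraries numbered 1, 2 and 3, and IL18R1 had 1.35, 0.39 and 0.59. The differences, 1.29, 1.23 and 1.17, were close to each other. For IL1RAP the ratios were -1.19, -2.54 and -2.09 and the differences from genes of like GC content were -1.25, -1.70 and -1.51. For SIGIRR, with 0.34, 1.25 and 1.01, the differences were 0.44, 0.69 and 0.56. IL1R2 was above genes of like GC content by 6.18, 6.66 and 9.23, IL1RL1 by 3.83, 2.98 and 3.95 and IL1R1 by 2.58, 1.58 and 1.56. The 9.23 of IL1R2 depends on the prior count of 2, since DMSO 3 had 0 counts. In the fit with the block and the GC correction the log2 fold changes were 7.14 ± 0.50 for IL1R2, 3.83 ± 0.32 for IL1RL1, 2.01 ± 0.30 for IL1R1, 1.23 ± 0.18 for IL18R1, 0.57 ± 0.09 for SIGIRR and -1.50 ± 0.12 for IL1RAP (SE).

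**Figure D2:**
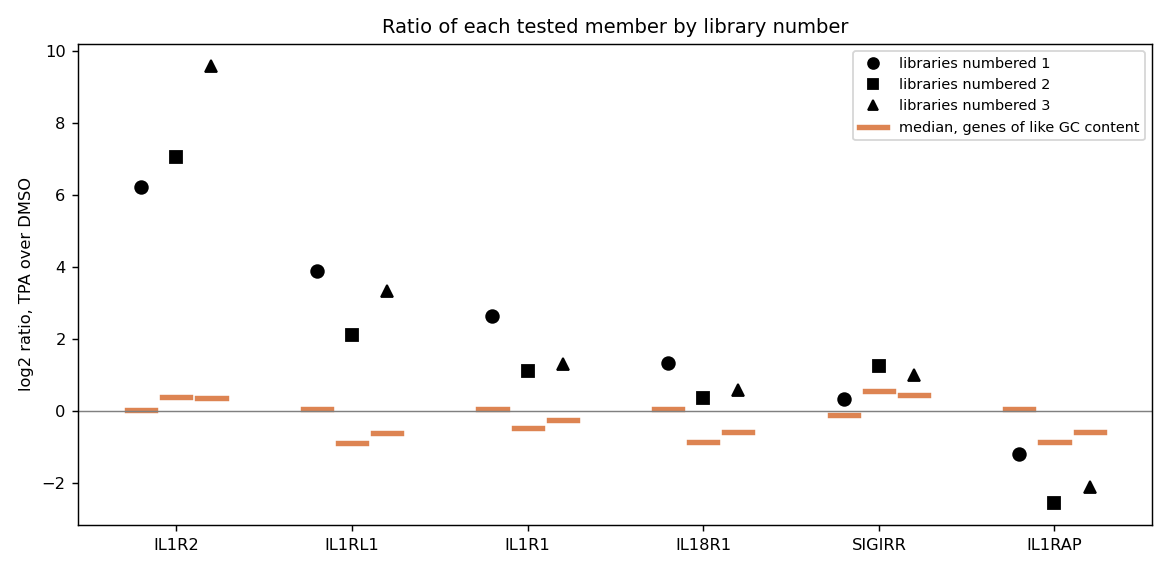
Log2 ratio of TPA to DMSO for each tested member, from libraries of the same number (black symbols, 1 per number), with the median of expressed genes within 2 percentage points of its GC content (orange bars). IL1R2, IL1RL1, IL1R1 and IL18R1 lay above their bars and IL1RAP below them for all 3 numbers, and SIGIRR lay closest to its bars (differences of 0.44 to 0.69).

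Levels of different chains were compared per length, as CPM per kb of merged exons (GENCODE 29). In DMSO SIGIRR (11.3 ± 0.698 CPM per kb, SD) was followed by IL1RAP (7.60 ± 1.13) and IL18R1 (0.667 ± 0.202), and these 3 kept this order without overlap in each library. IL1R1 (0.153 ± 0.0542), IL1R2 (0.101 ± 0.102) and IL1RL1 (0.0636 ± 0.0452) came next with overlapping ranges, but within each DMSO library IL1R1 was above IL1RL1 (0.195 against 0.115, 0.172 against 0.0478 and 0.0920 against 0.0283). In TPA SIGIRR (21.4 ± 6.70) and IL1R2 (16.6 ± 0.258) were on top and overlapped, with IL1R2 above SIGIRR in TPA 1 and below it in TPA 2 and 3. IL1RAP (2.04 ± 0.743), IL18R1 (1.29 ± 0.888), IL1RL1 (0.835 ± 0.892) and IL1R1 (0.636 ± 0.562) followed. IL1RAP was above the other 3 in each TPA library, and its range (1.51 to 2.89) did not overlap that of IL1R1 (0.244 to 1.28) but did overlap those of IL18R1 and IL1RL1. IL18RAP was at or under the floor in every library.

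The balance of decoy, signalling and accessory chain transcripts differed between the groups in every library. IL1R2 made up 51.0%, 36.6% and 0% of the summed per-length level of the IL-1 binding chains IL1R1 and IL1R2 in DMSO 1, 2 and 3, where both rest on few counts, and 92.9%, 97.7% and 98.6% in TPA 1, 2 and 3. Per length, IL1RAP was at 33.8, 51.2 and 80.2 times the level of IL1R1 in DMSO and at 2.26, 3.93 and 7.09 times in TPA. Against both IL-1 binding chains together, IL1RAP was at 16.6, 32.5 and 80.2 times their level in DMSO and at 0.160, 0.0905 and 0.102 times in TPA. The ranges of the groups did not overlap in any of these ratios. With the longest transcript as the length of each gene, IL1R2 was at 5.30 to 9.85 times the level of IL1RAP in TPA, against 5.81 to 10.8 times with merged exons. Ratios to IL1R1 depended more on the length used. With the longest transcript IL1RAP was at 52.4, 79.5 and 124 times the level of IL1R1 in DMSO. In TPA it was at 3.50, 6.09 and 10.99 times, still without overlap of the groups. These ratios are of transcripts, not of protein on the cell surface.

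**Figure D3:**
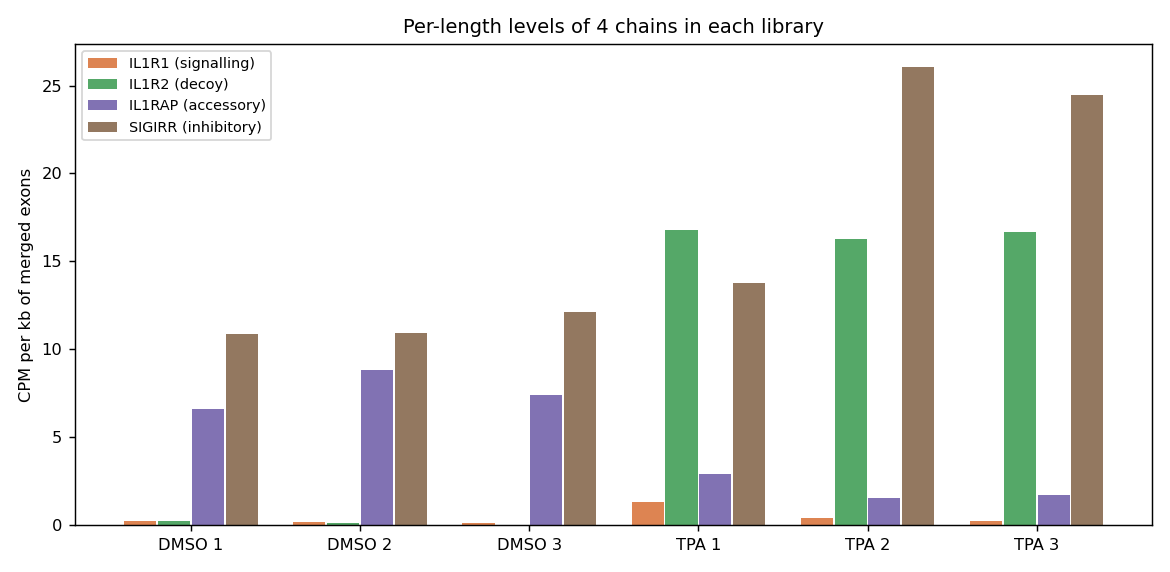
Level per length (CPM per kb of merged exons) of the signalling chain IL1R1, the decoy IL1R2, the accessory chain IL1RAP and the inhibitory chain SIGIRR, 1 bar per gene and library. In DMSO the bars of SIGIRR and IL1RAP stand out; in TPA IL1R2 reaches 16.3 to 16.8 in each library and IL1RAP 1.51 to 2.89.

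The members differ in the length of their coding sequence, which is 1194 bases for the longest form of IL1R2 against 1707 for IL1R1, 1668 for IL1RL1, 1623 for IL18R1, 1797 for IL18RAP, 2061 for IL1RAP and 1512 for SIGIRR (GENCODE 29, without the stop codon). IL1R2 has the shortest of the 7. They also share a place in the genome: 5 of the 7 lie in 1 cluster on chromosome 2, all on the + strand. In order from IL1R2 come IL1R1, IL1RL2 (the IL-36 receptor, not a member here), IL1RL1, IL18R1 and IL18RAP, whose starts are 72.7, 195.1, 319.7, 319.7 and 426.8 kb from that of IL1R2. Within the cluster levels were uneven. IL1RL2 had 0 counts in DMSO and 1 count in TPA, in TPA 1, although its neighbours IL1R1 and IL1RL1 had a higher mean in TPA. Of the nearest protein-coding genes outside, MAP4K4, a kinase gene on the IL1R2 side, had a log2 fold change of 0.69 ± 0.26 (SE; adjusted p = 0.182, edgeR) and SLC9A4, a sodium-proton exchanger gene on the IL18RAP side, had at most 4 counts in a library.

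**Figure D4:**
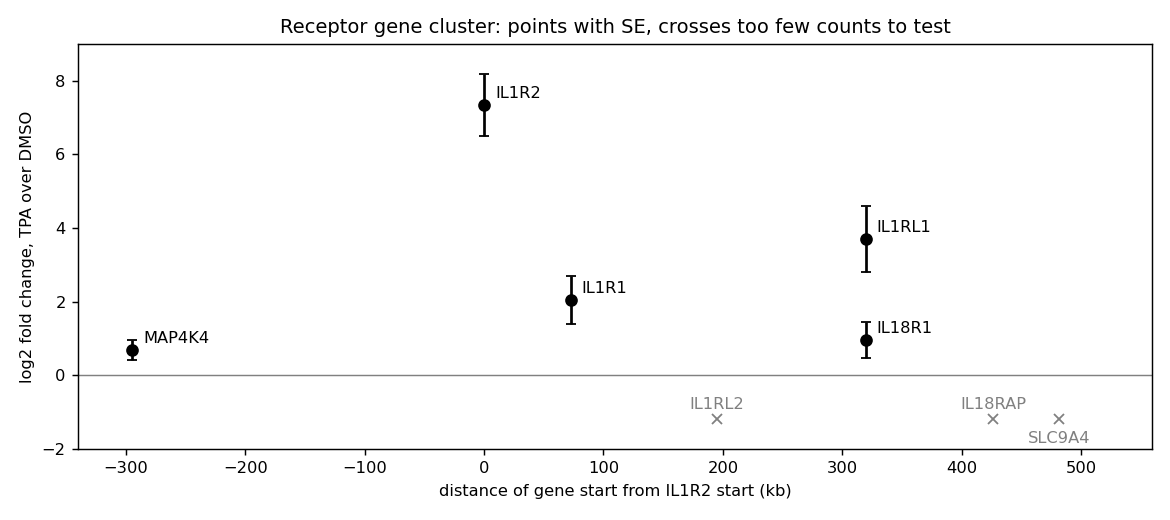
Log2 fold change of TPA over DMSO (points, with SE) against the distance of each gene's start from that of IL1R2, in kb, for the protein-coding genes of the cluster and the nearest on each side. IL1R2 at 7.34 and IL1RL1 at 3.70 are the highest points, and the crosses mark IL1RL2, IL18RAP and SLC9A4, which had too few counts to test and carry no fold change.

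Upstream sequences are shown for IL1R2 and IL1RAP, the members with the highest and the lowest log2 fold change, and for the IL1RL1 start that held an AP-1 match. All are the 250 bases before a RefSeq start site on GRCh38.p14, 5′ to 3′ on the + strand, in lower case with matches to the motifs below in capitals. They lie at chr2:101991710-101991959 and chr2:101998711-101998960 (IL1R2), chr3:190513835-190514084 (IL1RAP) and chr2:102337007-102337256 (IL1RL1).
IL1R2, first start: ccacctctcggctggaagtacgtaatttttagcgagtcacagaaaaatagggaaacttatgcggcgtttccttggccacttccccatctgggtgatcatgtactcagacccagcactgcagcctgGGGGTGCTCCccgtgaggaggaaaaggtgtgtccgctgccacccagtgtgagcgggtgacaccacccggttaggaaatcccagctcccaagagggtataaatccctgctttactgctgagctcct
IL1R2, second start: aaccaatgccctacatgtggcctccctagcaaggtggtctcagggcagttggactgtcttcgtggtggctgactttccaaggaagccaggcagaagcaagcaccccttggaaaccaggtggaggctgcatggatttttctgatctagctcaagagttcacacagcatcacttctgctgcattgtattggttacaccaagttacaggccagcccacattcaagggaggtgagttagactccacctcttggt
IL1RAP: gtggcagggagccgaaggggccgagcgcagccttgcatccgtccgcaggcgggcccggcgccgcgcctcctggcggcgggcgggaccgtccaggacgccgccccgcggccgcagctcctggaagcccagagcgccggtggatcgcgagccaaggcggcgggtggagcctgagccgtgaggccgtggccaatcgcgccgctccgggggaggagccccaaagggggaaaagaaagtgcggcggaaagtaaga
IL1RL1, second start: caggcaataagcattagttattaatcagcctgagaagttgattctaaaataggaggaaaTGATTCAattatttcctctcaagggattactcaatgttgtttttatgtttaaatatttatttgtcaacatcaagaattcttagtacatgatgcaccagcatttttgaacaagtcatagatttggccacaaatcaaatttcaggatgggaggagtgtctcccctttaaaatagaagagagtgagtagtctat

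TPA is widely used to activate the factors AP-1 and NF-kB, so both motifs were looked up on both strands. The AP-1 element was searched as TGANTCA and the NF-kB element by its usual consensus, in which the letters vary. In TGANTCA the N stands for any base, so a match need not be TGAGTCA or TGACTCA. RefSeq listed 15 start sites for the 7 members. Of these windows 1 held an AP-1 match (the second IL1RL1 start, TGATTCA beginning 191 bases before the start), against 6.57% of 35116 windows of all genes. The NF-kB consensus matched in 2 (the first IL1R2 start, GGGGTGCTCC beginning 125 bases before the start, and the second IL18R1 start), against 9.96% of all windows. A match is not a site shown to be bound, and the windows leave out distal elements. The IL1RAP window, with 74.8% GC, and all 4 IL1R1 windows held neither.

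The other genes of the pathway were taken from 7 lists of 90 genes, of which 64 were tested. The lists were chosen with earlier results of these data known, so their counts and medians describe the lists and are not tests of them. Over all lists 9 rose, 0 fell and 55 did not pass in edgeR's quasi-likelihood test. Of all 21825 genes 0.861% were called higher and 0.394% lower. An unadjusted p under 0.05 was reached by 21 of 64, against 4814 of all 21825 genes. With the replicate block 15 rose and 3 fell, against 4.58% and 6.52% of all genes. Without DMSO 2, without DMSO 3 or without TPA 3 the number that rose was 0, and without TPA 2 it was 5. Over all genes 0 of 22513, 0 of 22411, 2 of 22902 and 24 of 22904 were called higher in these fits. The median log2 fold change of the 64 was 0.26, against -0.11 over all genes tested.

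The ligands and antagonists that the receptor chains bind had the highest median of the lists. Of 12 genes 8 were tested, 4 rose, 0 fell and 4 did not pass, with a median log2 fold change of 2.38. IL1RN, the receptor antagonist that occupies IL1R1 without signalling, rose from 1.05 ± 0.346 to 19.01 ± 2.47 CPM (log2 4.17 ± 0.32 SE, adjusted p = 0.0143, edgeR). IL1B, an agonist of IL1R1, rose from 30.1 ± 4.09 to 187 ± 55.3 CPM (2.63 ± 0.28, adjusted p = 0.0250). IL36G, an agonist of the receptor of IL1RL2 and IL1RAP, rose from 0.107 ± 0.0216 to 3.21 ± 1.88 CPM (4.86 ± 0.57, adjusted p = 0.0250), and its antagonist IL36RN from 1.45 ± 0.533 to 9.96 ± 0.272 CPM (2.78 ± 0.34, adjusted p = 0.0250). IL1A, the other IL-1 agonist, had 91.9, 25.8 and 27.8 CPM in DMSO and 437, 94.8 and 108 CPM in TPA and did not pass (2.14 ± 0.75, adjusted p = 0.158), but did with the replicate block (adjusted p = 0.00101). Its log2 fold change was 1.17 without TPA 1 and 3.00 without DMSO 1. IL18 (-0.38 ± 0.21, adjusted p = 0.334) and IL18BP, a soluble binder of IL-18 (0.15 ± 0.20, adjusted p = 0.680), did not pass. IL33, the ligand of IL1RL1, had too few counts to be tested, 7 in DMSO and 45 in TPA.

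The 3 receptor family genes outside the members were all under the filter. IL1RAPL1, a family member best known from neurons, had 3, 1 and 0 counts in DMSO and 91, 8 and 15 in TPA, which is 30.4 times as high over summed counts (95% counting interval 11.6 to 113), with most of its reads in TPA 1. IL1RAPL2 had 5 counts in DMSO and 0 in TPA.

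The next list held genes that act close to the receptor, both carriers of the signal from the TIR domain and inhibitors of it. Of 21 tested 2 rose, none fell and 19 did not pass, with a median log2 fold change of 0.06. IRAK2, a kinase-like protein of the receptor complex, rose from 23.2 ± 7.84 to 82.8 ± 8.61 CPM (log2 1.84 ± 0.29 SE, adjusted p = 0.0410, edgeR). TNIP1, a partner of the NF-kB inhibitor A20, rose from 199 ± 34.4 to 703 ± 79.9 CPM (1.82 ± 0.21, adjusted p = 0.0250). With the replicate block 5 rose and 0 fell, adding the adaptor gene MYD88, IKBKG and TNFAIP3, the gene of A20. MYD88 had 1.02 ± 0.28 without the block, and its adjusted p in edgeR was 0.0943 without and 0.0364 with it. In ligand processing and receptor shedding 1 gene rose out of 15 tested, none fell and 14 did not pass, with a median of 0.13. NLRP3, the sensor of an inflammasome that matures IL-1 beta and IL-18, had 32, 10 and 6 counts in DMSO and 613, 1023 and 1106 in TPA (5.89 ± 0.63, adjusted p = 0.0250, and 6.92 without DMSO 1), while NLRP1, another inflammasome sensor, did not pass without the block (1.13 ± 0.24, adjusted p = 0.0651) and was called higher with it (adjusted p = 0.0153). CASP1, the protease of these inflammasomes, had 1.42, 8.27 and 6.71 CPM in DMSO and 0.326, 1.98 and 2.18 CPM in TPA and did not pass (-1.86 ± 0.80, adjusted p = 0.226), but was called lower with the block (adjusted p = 0.00509). ADAM17, a protease that can shed IL1R2, was at 140 ± 52.6 CPM in DMSO against 112 ± 66.0 CPM after TPA (adjusted p = 0.695).

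**Figure D5:**
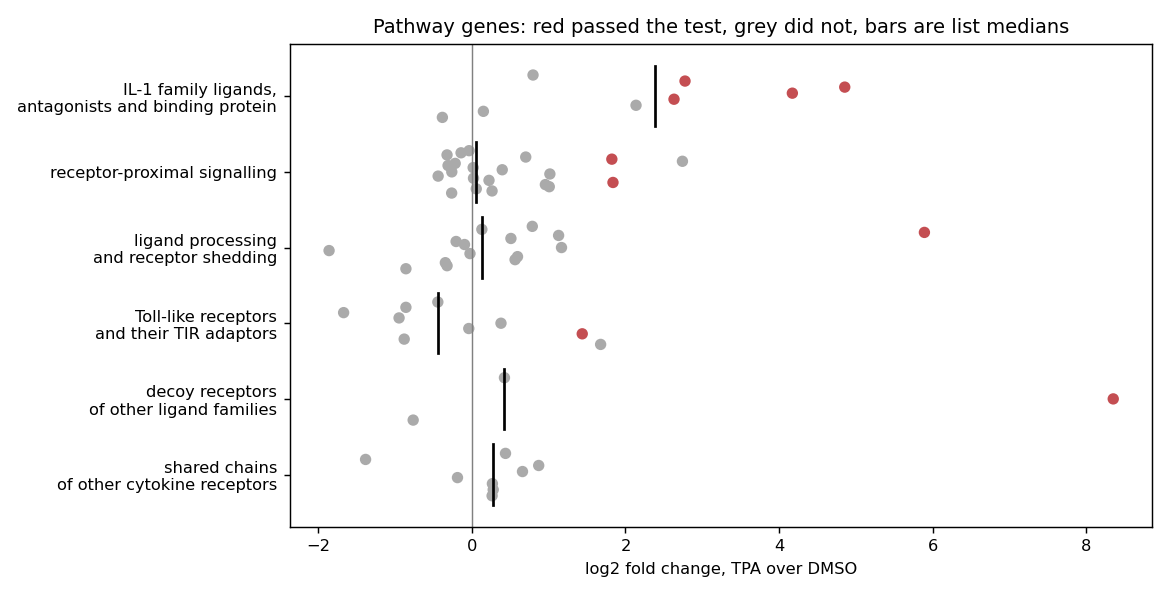
Log2 fold change of TPA over DMSO for the 64 tested pathway genes by list, 1 point per gene, with list medians as bars. Red points passed the test over all genes (9, all higher), grey points did not, and the ligand and antagonist list has the highest median, 2.38.

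The lists of related receptors gave a reference for the members. Of 9 tested genes of Toll-like receptors, which share the TIR domain, and their adaptors, TICAM1, an adaptor of TLR3 and TLR4, rose (log2 1.44 ± 0.23 SE, adjusted p = 0.0410, edgeR), 0 fell and 8 did not pass, TLR3 among them (-1.67 ± 0.50, adjusted p = 0.115; called lower with the block, adjusted p = 0.0129), and the median was -0.44. Of 10 decoy receptors of other ligands 3 were tested and 1 rose, IL13RA2, a decoy for IL-13, which went from 1 summed count to 412 after TPA (adjusted p = 0.0350; 439 times as high, with 78.4 to 17395 as the 95% counting interval). Of these reads 286 were in TPA 1, against 50 and 76 in TPA 2 and 3, and the log2 fold change of 8.35 ± 1.20 (SE) went to 7.25 without TPA 1 and to 10.20 without DMSO 1, where it no longer passed (adjusted p = 0.0925). TNFRSF10D, a decoy for TRAIL, did not pass (0.42 ± 0.25, adjusted p = 0.368), and the median was 0.42. Of 8 tested shared chains of other cytokine receptors 0 passed in edgeR. An unadjusted p under 0.05 was reached by 2 of the 8, a share near that of all genes. IL4R had 0.66 ± 0.25 (adjusted p = 0.182) and LIFR -1.39 ± 0.57 (adjusted p = 0.211; called lower with the block, adjusted p = 0.0124).

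The 6 tested members did not follow 1 pattern over the 6 libraries. Pearson's r of log2 CPM was 0.94 between IL1R1 and IL1RL1, 0.91 between IL1RL1 and IL18R1 and 0.89 between IL1R1 and IL18R1, all highest in TPA 1, whereas IL1RAP had -0.92 with IL1R2 and -0.94 with SIGIRR. These values describe 6 libraries that share treatment and library number, and carry no test. The same measure was taken over 11840 other genes with an average log2 CPM of at least 1. Clone, locus, antisense, LINC, small RNA, open reading frame and FAM names had been left out of these. Those most like IL1R2 were SRGAP2, CD44, PLAGL2 and ALDH1A3 (r = 0.9960 to 0.9993). Of them CD44, a hyaluronan receptor gene, was at 1537 ± 226 CPM in DMSO against 2864 ± 46.1 CPM after TPA. None of these genes passed in edgeR (adjusted p = 0.0596 for CD44 to 0.283 for SRGAP2). Pearson's r does not measure the size of a change: their log2 fold changes were 0.38 (SRGAP2) to 0.92 (ALDH1A3), against 7.34 for IL1R2. Most like IL1RAP were SLC44A1, XRCC2, TMEM135 and CDC7 (0.9983 to 0.9986). Most like IL1R1 were XACT, RPS7, MOCS2 and GCA (0.9806 to 0.9930), whose log2 fold changes were 4.18, 0.14, 0.17 and 0.98. For IL1R2, IL1RAP and IL1R1, 423, 466 and 25 of the 11840 genes had r over 0.95, so these names stand for many genes of like pattern.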

How the data were processed

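RNA of 6 KYSE150 libraries (3 TPA, 3 DMSO) was sequenced. The authors deposited raw counts of reads per gene symbol, not normalized. HISAT2 2.1.0 and HTSeq 0.12.4 on hg38 or GRCh38 are named in the submitters' processing notes, while the annotation release is not given in the sources used here, nor is the strand setting. Columns called control were taken as the DMSO libraries of that number, since the series text gives a single control arm.

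The whole table was fitted with edgeR 4.0.16 in R 4.3.3 (TMM factors, filterByExpr, quasi-likelihood test, group as the only term, Benjamini-Hochberg over 21825 genes, threshold 0.05). SE is the log2 fold change over the square root of F. CPM are counts over the TMM-scaled library size, and log2 CPM and ratios between same-numbered libraries used a prior count of 2. Members and lists were chosen with earlier results of these data known. Genes named were the members, list genes that passed or had the lowest adjusted p, main ligands, neighbours and the 4 genes most like IL1R1, IL1R2 and IL1RAP. Others (CASP1, ADAM17, MYD88, IKBKG, TNFAIP3, IL18BP, IL1RAPL1, IL1RAPL2) were named after their values were seen. The libraries were taken as paired by number, because deviations of same-numbered libraries correlated above 0.1 in every pair. This comes from the data, and the crossed pairings of numbers 2 and 3 were as close (0.36 and 0.37). Deviations within a group of 3 sum to 0. With number 1 apart in both groups, positive values for numbers 2 and 3 were therefore likely under either matching. The rule thus does not show that numbers 2 and 3 are pairs, and calls made with the block rest on this pairing. Annotation, GC content (longest transcript) and lengths came from GENCODE 29 on GRCh38, and upstream sequences from RefSeq (GRCh38.p14), where all 7 members matched. The GC correction was a robust spline with 5 degrees of freedom per library, on 21023 genes. Steps were tested on simulated data. Alternatives used other scalings (RLE factors, library size), filters (none, a stricter one of 1 CPM throughout a group), DESeq2 1.42.0, limma-voom (limma 3.58.1), the block, and left-out libraries.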

Additional observations from a re-analysis of the deposited data

How the results depend on the processing

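Over 15 alternatives the 6 tested members kept the sign of their log2 fold change in all 90 fits, and the 9 pathway genes that passed in all 135. The fits reuse the same libraries, and the genes were chosen with this contrast known, so the kept signs are not support. Of the 15 alternatives IL1R2 passed in 12, IL1RAP in 10, IL1RL1 in 6, IL1R1 in 5, SIGIRR in 4 and IL18R1 in 2. The 9 pathway genes passed in 10 (TICAM1) to 12 (IL1B, IL1RN and NLRP3). IL18 went from -0.38 to 0.18 with the replicate block and GC correction. The numbers of all genes called higher and lower, 188 and 86, became 429 and 202 with no filter, 1702 and 915 with DESeq2, 1000 and 1423 with the replicate block, 1942 and 2249 with the block and GC correction, and 7216 and 7475 without both libraries numbered 1. Genes called lower were 219 with library size only and 130 with limma-voom. Scaling by library size also called 126 higher (36.5% of calls, against 68.6%) and shifted the median over all genes from -0.11 to -0.36 on the log2 scale. Leaving out single libraries gave 0 to 5577 higher and 0 to 6297 lower. At 0 calls, without DMSO 2 and without DMSO 3, 2612 and 2745 genes had an unadjusted p under 0.05 in edgeR.

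Of the pathway genes, 9 called higher and 0 lower, DESeq2 called 17 and 1, the replicate block 15 and 3, the block with GC correction 18 and 6, and the fit without both libraries numbered 1 37 and 18. Leaving out single libraries gave 0 to 26 higher and 0 to 14 lower (0 higher without DMSO 2, without DMSO 3 and without TPA 3, 5 without TPA 2, and 26 without TPA 1). Members called higher numbered 2 with no filter, 4 with DESeq2, 3 with the replicate block, 5 with the block and GC correction and 5 without both libraries numbered 1, and 0 to 4 without single libraries. Members called lower numbered 0 to 1. Over all genes those called higher were 429 of 40368 with no filter, 1702 of 21825 with DESeq2 and 1000 of 21825 with the replicate block. They were 1942 of 21023 with the block and GC correction, 7216 of 22421 without both libraries numbered 1 and 5577 of 22633 without TPA 1. Genes called lower in these fits were, in the same order, 202, 915, 1423, 2249, 7475 and 6297. Nothing is read from the member and pathway counts beside these. The causes were not tested. Depth limits IL18RAP, IL1RL2, IL33 and the DMSO level of IL1R2, which rest on few counts.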

Other observations

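The SD of the log2 CPM of IL1R2 over the 3 TPA libraries was 0.02, and 0.548% of 14063 genes with an average log2 CPM of at least 1 had a smaller one (median 0.47). Its neighbours in the cluster, at lower counts, had an SD in TPA of 1.21 (IL1R1), 1.499 (IL1RL1) and 0.91 (IL18R1). IL1RAP (0.49) and SIGIRR (0.51) were near the median. In DMSO IL1R2 had too few counts for such a comparison. These are descriptions of 3 libraries a group.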
